A study of Mus musculus with 8 samples.

Results

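Epha2, Gria3, Exoc4, St14, Zfyve21 and Trpm2 are 6 genes with no common family or pathway that stood, next to known targets of the DNA damage regulator p53, among the genes with the clearest difference between tumour monocytes of irradiated and of sham-treated mice. They were chosen by that same difference, so it is given as a description and carries no test. All 6 were measured among the 22180 genes of the arrays, each by 1 probe set. They were set beside Ccng1, which encodes cyclin G1, and Trp53inp1, which encodes a stress-induced cofactor of p53. Both are established p53 targets, and both were also picked out by the same comparison.

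The data are 8 Affymetrix arrays, 1 for each mouse: 4 irradiated mice, whose tumours received 20 Gy, and 4 sham-treated mice. All hosts were female C57BL/6 mice, 8 weeks old at implantation, with no engineered allele named in the labels. Each carried a subcutaneous tumour grown for 14 days from cell line 152, a single pancreatic cancer line from mice with the alleles KrasLSL-G12D/+, Trp53LSL-R172H/+ and Pdx1-Cre. RNA came from cells sorted 1 day after treatment as CD45+ CD11b+ Ly6Chi, the surface profile of inflammatory monocytes and young macrophages. The gate takes host leukocytes, and the tumour cells around them carry the mutant Trp53 allele in both groups.

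When DNA is broken, p53 is stabilised and binds paired half-sites near its target genes, which arrest the cell cycle, repair DNA, trigger death or, like Ccng1 and Mdm2, restrain p53 itself. The 6 genes described here act elsewhere. Epha2 encodes a receptor tyrosine kinase that binds ephrin-A ligands on neighbouring cells. Gria3 encodes a subunit of the AMPA glutamate receptor, best known from synapses. Exoc4 encodes a subunit of the exocyst, the complex that tethers secretory vesicles to the plasma membrane. St14 encodes matriptase, a membrane-bound serine protease of epithelia. Zfyve21 encodes a FYVE domain protein that binds phosphoinositides on endosomes and takes part in focal adhesion turnover. Trpm2 encodes a calcium-permeable channel of phagocytes that opens with ADP-ribose under oxidative stress.

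All 6 genes were higher in every irradiated mouse than in any sham mouse, and their differences on the log2 scale ran from 0.44 for St14 to 1.08 for Gria3. The same held for 1.12% of all genes, the irradiated group lying above the sham group without overlap. Since the 6 were chosen on this comparison, nothing is read from their count. An adjusted p under 0.05 in limma was reached by 0% of genes; the smallest adjusted p was 0.545, while 2.05% of genes were higher and 4.03% lower at an unadjusted p under 0.05. That split depended on the scaling: it was 454 genes higher and 893 lower on the deposited values, but 662 higher and 603 lower after quantile normalization. The plot of levels by mouse shows that the 6 genes differ more in how they vary among the irradiated mice than in their direction.

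**Figure D1:**
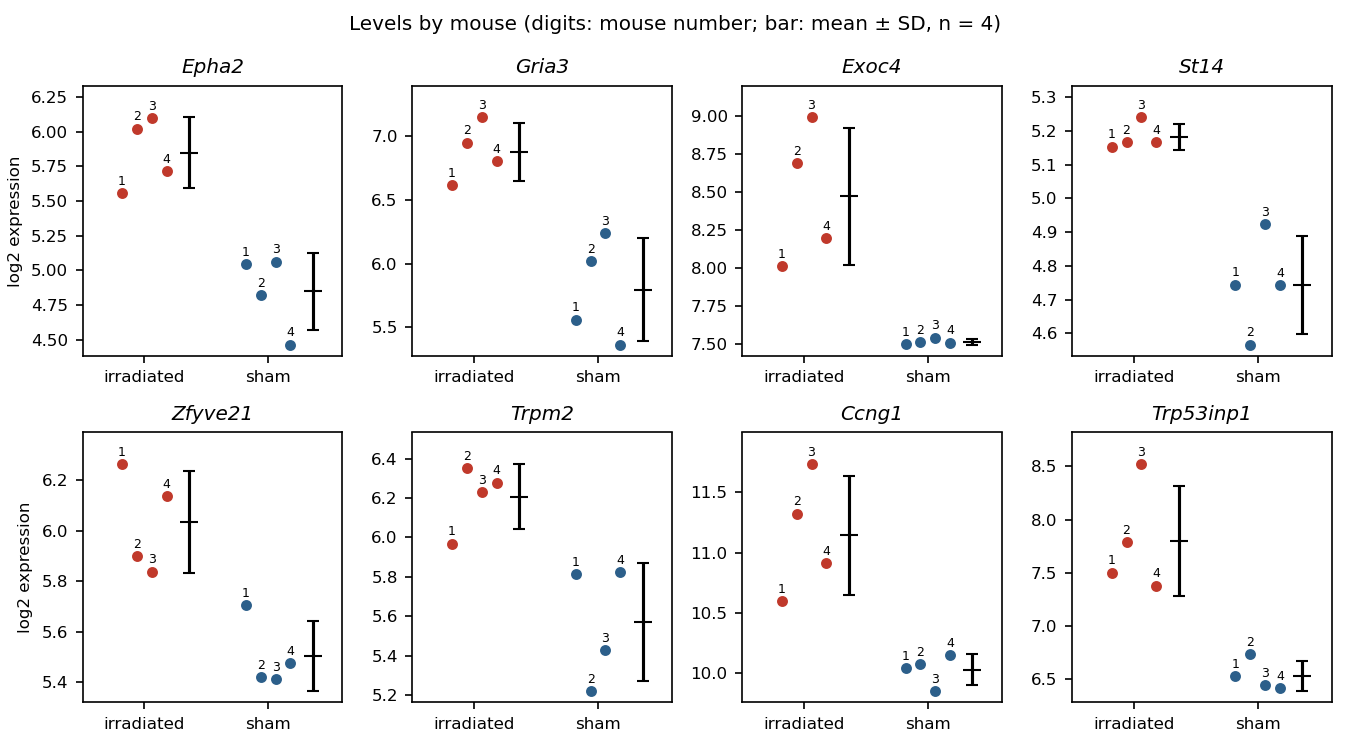
Log2 expression of the 6 genes and of Ccng1 and Trp53inp1 in each irradiated mouse (red, left) and each sham mouse (blue, right), with mouse numbers beside the points and the mean ± SD of 4 mice beside each group. No panel shows an overlap of the groups, and in the Exoc4 panel the sham mice lie within 0.04 of one another while the irradiated mice span 0.98.

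Exoc4, the exocyst subunit gene, had the pattern closest to Ccng1 and Trp53inp1. Its log2 level was 8.01, 8.69, 8.99 and 8.19 in irradiated mice 1 to 4, against 7.50, 7.51, 7.54 and 7.51 in sham mice 1 to 4. The sham mice were nearly level with one another, and the irradiated mice spread widely above them, with mouse 3 highest and mouse 1 lowest. The means were 8.47 ± 0.45 in irradiated and 7.52 ± 0.02 in sham mice (SD, n = 4 each), a difference of 0.96 ± 0.19 (SE) on the log2 scale, or 1.94-fold. Ccng1 stood at 10.60, 11.32, 11.74 and 10.91 in irradiated mice 1 to 4, against 10.04, 10.08, 9.85 and 10.15 in sham mice 1 to 4. Its irradiated mice therefore took the same order as those of Exoc4, mouse 3 first, then mice 2, 4 and 1. Trp53inp1 stood at 7.50, 7.79, 8.52 and 7.38 in irradiated mice 1 to 4, against 6.53, 6.73, 6.44 and 6.42 in sham mice 1 to 4. It too was highest in irradiated mouse 3 and next in mouse 2, but its lowest irradiated mouse was mouse 4.

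Over the 8 arrays, after subtraction of each group's mean, Exoc4 and Ccng1 correlated at a Pearson r of 0.95 and a Spearman rho of 0.83. This measure does not use the difference between the groups. Only 0.0631% of all genes had an r with Ccng1 at least as high as that of Exoc4, Ccng1 itself among them. The r was 0.75 without irradiated mice 1 and 3, the arrays farthest from the median of Ccng1. For this value, and those below that leave out both mice, deviations were still taken from the means of all 4 mice. Only mice 2 and 4 then remain of the irradiated group, so such a value cannot settle how far a relation rests on mice 1 and 3. The agreement lay in the irradiated mice, where the r with Ccng1 was 0.99 for Exoc4, 0.97 for Epha2 and 0.996 for Gria3. Among the 4 sham mice the r was -0.84 for Exoc4, -0.79 for Epha2 and -0.80 for Gria3: these genes were highest in sham mouse 3, where Ccng1 was lowest, and Exoc4 hardly varied there. For Exoc4 and Trp53inp1 the r over the 8 arrays was 0.87, and 0.649% of genes reached it, with -0.33 among the 4 sham mice. Each group holds only 4 arrays, so these values are given as a description of the 8 arrays, with no p. When the group means were kept, the 3 genes most like Exoc4 among 11156 brighter genes were Ccng1 (r = 0.99 over 8 arrays), Psrc1 (0.98) and Trp53inp1 (0.97). Psrc1, a microtubule-associated protein gene, is also a p53 target. A likeness of this kind includes the separation of the groups, which all of these genes share.

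The sequence upstream of the Exoc4 start site is shown beside that of Ccng1 because both hold a match to the p53 half-site, the 10-base motif known by that name, which was searched on both strands. The sequences are from RefSeq, mouse build GRCm38.p6, and each covers the 250 bases before an annotated start. Exoc4 is at chr6:33248878-33249127 on the plus strand and Ccng1 at chr11:40755287-40755536 on the minus strand. Capitals mark the half-site in Exoc4 and, in Ccng1, a stretch of 20 bases that fits 2 adjoining half-sites with 1 mismatch.
Exoc4: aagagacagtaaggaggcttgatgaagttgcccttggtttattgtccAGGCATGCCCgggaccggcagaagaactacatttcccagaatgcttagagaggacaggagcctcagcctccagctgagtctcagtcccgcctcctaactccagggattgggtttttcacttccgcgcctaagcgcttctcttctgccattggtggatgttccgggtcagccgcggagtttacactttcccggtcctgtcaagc
Ccng1: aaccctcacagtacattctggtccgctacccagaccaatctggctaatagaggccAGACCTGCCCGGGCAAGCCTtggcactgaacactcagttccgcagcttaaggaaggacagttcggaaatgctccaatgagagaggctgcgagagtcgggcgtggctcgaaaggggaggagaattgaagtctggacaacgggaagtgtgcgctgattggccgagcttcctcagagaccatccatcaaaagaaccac
The half-site of Exoc4 begins 203 bases before the start, and the 20-base stretch of Ccng1 begins 195 bases before its start. A half-site match was present in 7.13% of 32851 upstream windows of this length, so one match is common. The 20-base form with at most 1 mismatch was present in 0.0761% of them, and the best such stretch in Exoc4 had 4 mismatches. A match is a description of the letters and not a shown binding site. Upstream windows were on hand for 4 of the 6 genes, and those of Epha2, Zfyve21 and Trpm2 held no half-site match.

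Epha2, the ephrin-A receptor kinase gene, is reported in human cell lines to respond to p53 family members. It stood at 5.56, 6.02, 6.10 and 5.71 in irradiated mice 1 to 4, against 5.04, 4.82, 5.06 and 4.46 in sham mice 1 to 4. The means were 5.85 ± 0.26 in irradiated and 4.85 ± 0.28 in sham mice (SD, n = 4 each), a difference of 1.00 ± 0.17 (SE) on the log2 scale. The irradiated mice again took the order 3, 2, 4, 1, but the sham mice spread as widely as the irradiated ones. After subtraction of group means its r over the 8 arrays was 0.50 with Ccng1 (rho 0.38) and 0.57 with Trp53inp1 (rho 0.69). Without irradiated mice 1 and 3 the r with Ccng1 was -0.11, which again cannot settle how far the relation rests on them. Among the 4 irradiated mice alone that r was 0.97, and among the 4 sham mice -0.79. With single arrays left out, the r over both groups ran from 0.21 without irradiated mouse 1 to 0.83 without sham mouse 4. The brighter genes most like it with group means kept were Phlda3, a p53-induced repressor of Akt (r = 0.97 over 8 arrays), the inositol transporter gene Slc2a13 (0.97) and Tex19.1 (0.95). Slc2a13 differed between the groups by only 0.20 on the log2 scale.

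The Epha2 upstream sequence, chr4:141300971-141301220 on the plus strand, is shown because it holds a cAMP response element, TGACGTCA, which reads the same on both strands and was found in 1.55% of windows. Capitals mark the element, which begins 33 bases before the start.
Epha2: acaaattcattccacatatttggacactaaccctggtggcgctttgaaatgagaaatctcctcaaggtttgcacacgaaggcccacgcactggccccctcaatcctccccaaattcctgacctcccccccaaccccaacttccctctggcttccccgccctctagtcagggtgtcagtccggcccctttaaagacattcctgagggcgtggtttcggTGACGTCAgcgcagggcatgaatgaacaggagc

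Gria3, the AMPA receptor subunit gene, stood at 6.61, 6.95, 7.14 and 6.80 in irradiated mice 1 to 4, against 5.56, 6.02, 6.24 and 5.37 in sham mice 1 to 4. The irradiated mice took the order of Ccng1, and sham mice 2 and 3 were the highest of their group. The means were 6.88 ± 0.23 in irradiated and 5.80 ± 0.40 in sham mice (SD, n = 4 each), a difference of 1.08 ± 0.20 (SE) on the log2 scale, or 2.11-fold. Without sham mice 2 and 3 the difference was 1.41. Those 2 mice had the most T and NK cell marker signal, as given further on. They were also the highest sham mice for markers of B and plasma cells, neutrophils, fibroblasts, endothelial cells and epithelial cells. The part of such cells in the Gria3 level was not tested. After subtraction of group means the r over the 8 arrays was 0.30 with Ccng1 (rho 0.26) and 0.49 with Trp53inp1 (rho 0.52). Without irradiated mice 1 and 3 the r with Ccng1 was -0.36. Among the 4 irradiated mice alone that r was 0.996, and among the 4 sham mice -0.80. The brighter genes most like it with group means kept were Pth2 (r = 0.96 over 8 arrays), Epha2 (0.94) and Mfsd3 (0.94). Pth2 and Mfsd3 differed between the groups by only 0.24 and 0.23 on the log2 scale.

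St14, the matriptase gene, had the smallest difference of the 6 and the tightest irradiated group. It stood at 5.15, 5.17, 5.24 and 5.17 in irradiated mice 1 to 4, against 4.74, 4.57, 4.92 and 4.74 in sham mice 1 to 4. The irradiated mice lay within 0.09 of one another, and their order, nominally that of Ccng1, set mouse 3 above 3 nearly equal mice. The means were 5.18 ± 0.04 in irradiated and 4.74 ± 0.15 in sham mice (SD, n = 4 each), a difference of 0.44 ± 0.10 (SE) on the log2 scale, or 1.35-fold. With group means subtracted its r over the 8 arrays was 0.05 with Ccng1 (rho 0.31) and 0.03 with Trp53inp1 (rho 0.26). Without irradiated mice 1 and 3 the r with Ccng1 was -0.43. The brighter genes most like it with group means kept were Wnt7a (r = 0.95 over 8 arrays), Nfix (0.94) and Aaas (0.94). Wnt7a, Nfix and Aaas differed between the groups by 0.19, 0.30 and 0.46 on the log2 scale. The sham means of St14 and Epha2 lay close to 4.70, the median of all probe sets, and signal over background was not tested, so the true size of the change in these genes is not known.

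Zfyve21, the FYVE domain gene, ran against Ccng1 among the irradiated mice. It stood at 6.26, 5.90, 5.84 and 6.14 in irradiated mice 1 to 4, against 5.71, 5.42, 5.41 and 5.47 in sham mice 1 to 4. The irradiated mice took the order 1, 4, 2, 3, the reverse of Ccng1, while all of them stayed above the sham mice. The means were 6.03 ± 0.20 in irradiated and 5.50 ± 0.14 in sham mice (SD, n = 4 each), a difference of 0.53 ± 0.13 (SE) on the log2 scale, or 1.44-fold. After subtraction of group means its r over the 8 arrays was -0.75 with Ccng1 (rho -0.79), -0.66 with Trp53inp1 (rho -0.60) and -0.82 with Exoc4. Of all genes, 97.3% had a higher or equal r with Ccng1. Without irradiated mice 1 and 3 the r with Ccng1 was -0.35. The brighter genes most like it with group means kept were the kallikrein protease gene Klk7 (r = 0.996 over 8 arrays), the homeobox gene Lhx2 (0.97) and Prdm16os (0.96), whereas Ccng1 ranked 449 among them. Klk7, Lhx2 and Prdm16os differed between the groups by 0.25, 0.55 and 0.27 on the log2 scale.

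The Zfyve21 upstream window, chr12:111813920-111814169 on the plus strand, is shown for its 6 CCAAT boxes (CCAAT on either strand, so also read as ATTGG), none overlapping another. Capitals mark them.
Zfyve21: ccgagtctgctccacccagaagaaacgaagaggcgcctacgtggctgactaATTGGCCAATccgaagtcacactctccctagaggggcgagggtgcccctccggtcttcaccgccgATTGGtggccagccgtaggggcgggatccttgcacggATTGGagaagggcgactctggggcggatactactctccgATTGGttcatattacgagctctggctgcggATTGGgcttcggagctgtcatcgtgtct
As many as 6 CCAAT boxes were present in 0.0578% of upstream windows, and at least 1 in 33.8%. A further annotated start of Zfyve21 lies downstream, and its window, which overlaps the one shown, held 4.

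Trpm2, the ADP-ribose-gated channel gene, stood at 5.97, 6.35, 6.23 and 6.28 in irradiated mice 1 to 4, against 5.81, 5.22, 5.43 and 5.82 in sham mice 1 to 4. Irradiated mouse 1 was the lowest of its group and only 0.14 above the highest sham mouse, and the sham mice fell into a higher pair, mice 1 and 4, and a lower pair, mice 2 and 3. The means were 6.21 ± 0.17 in irradiated and 5.57 ± 0.30 in sham mice (SD, n = 4 each), a difference of 0.64 ± 0.16 (SE) on the log2 scale, or 1.56-fold. Without sham mice 2 and 3 it was 0.39, a move of over 1.5 times. Those arrays were the highest sham arrays for T and NK cell markers. The same held for markers of B and plasma cells, neutrophils, fibroblasts, endothelial cells and epithelial cells. With the T and NK marker mean as a covariate the difference was 0.51. After subtraction of group means the r over the 8 arrays was 0.37 with Ccng1 (rho 0.33) and -0.05 with Trp53inp1 (rho -0.14). The r with Ccng1 was 0.07 without irradiated mouse 1 and 0.57 without sham mouse 2. The brighter genes most like it with group means kept were the kinase gene Cdc42bpg (r = 0.97 over 8 arrays), Mdm4, which encodes an inhibitor of p53 (0.95), and Mcidas (0.93). Cdc42bpg, Mdm4 and Mcidas differed between the groups by 0.25, 0.51 and 0.19 on the log2 scale.

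The irradiated mice thus separated the 6 genes. Epha2, Gria3 and Exoc4 took the order of Ccng1, mouse 3 highest and mouse 1 lowest. So, nominally, did St14, whose mice 2 and 4 stood at 5.167 and 5.166. That order was taken by 5.09% of all genes and 8.87% of the 248 genes whose irradiated group lay above the sham group. Zfyve21 took the reverse order and Trpm2 the order 2, 4, 3, 1. Several marker lists of other cell types were ordered alike in the same mice. The markers of T and NK cells, of B and plasma cells, of fibroblasts and of dendritic cells all took the order 1, 4, 2, 3, which is that of Zfyve21 and of 4.56% of all genes and the reverse of Ccng1. Fibroblast list means were 6.39, 5.71, 5.35 and 6.30 in irradiated mice 1 to 4. B and plasma cell list means were 5.81, 5.32, 5.01 and 5.58, and dendritic cell list means 6.59, 6.53, 6.33 and 6.54. The neutrophil markers took the order 3, 2, 4, 1, which is that of Ccng1. The remaining lists took neither order. It was 1, 3, 4, 2 for epithelial and tumour cells, 1, 2, 4, 3 for endothelial cells and 4, 1, 2, 3 for neurons and glia. It was 2, 1, 3, 4 for monocytes and macrophages and 3, 4, 2, 1 for mast cells, basophils and eosinophils. Within the monocyte and macrophage list the genes took unlike orders. Ly6c2, a marker of the gate, stood at 12.45, 11.88, 10.77 and 11.94 in irradiated mice 1 to 4, the order of Zfyve21. C1qa of the same list stood at 9.84, 10.17, 10.78 and 9.38, the order of Trp53inp1. Mertk and C1qb were ordered like C1qa, and Ccr2 like Ly6c2. The remaining genes of that list took other orders. The part of the cells of all these lists in the spread among irradiated mice was not tested. In such bulk samples, fewer cells of a type and less RNA per cell cannot be told apart.

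**Figure D2:**
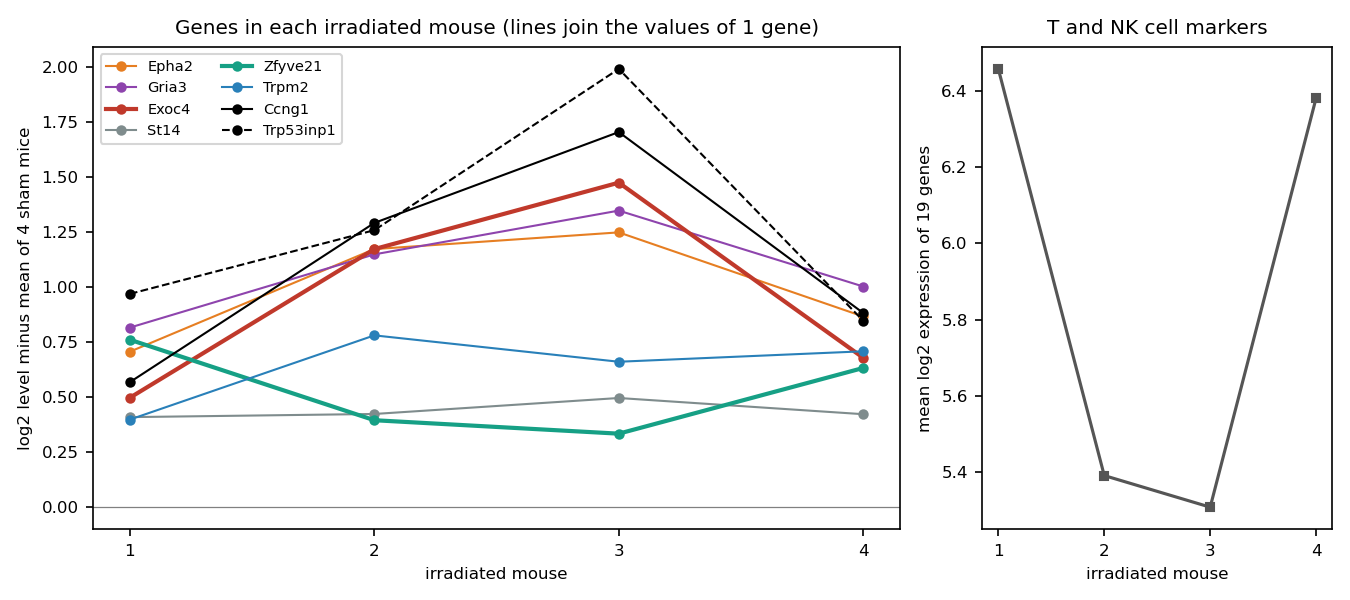
Left, the log2 level of each gene in irradiated mice 1 to 4 minus the mean of the 4 sham mice; right, the mean log2 expression of 19 T and NK cell markers in the same mice. Lines join the values of 1 gene or list and imply no order of the mice; Exoc4 follows Ccng1 with a peak of 1.48 in mouse 3, where Zfyve21 has its lowest value of 0.33.

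Relatives of the 6 genes were examined next, to see whether a family differed as a whole. In 7 lists of family members and partners, 137 genes other than the 6 were measured, of which 75 were higher and 62 lower in irradiated mice. None passed the adjusted threshold, none lay above the sham group without overlap (1.12% of all genes did), and 4 lay below it (2.56% of all genes did). The lists were not tested as sets, and the median difference over all genes was -0.03 on the log2 scale.

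Of the 16 other exocyst subunits and regulators, 4 were higher and 12 lower in irradiated mice, with a median difference of -0.04 and a range of -0.28 to 0.16. Exoc7, a subunit that binds the plasma membrane, stood at 6.68 ± 0.01 in irradiated and 6.96 ± 0.20 in sham mice (SD, n = 4 each), with an adjusted p of 0.819 in limma. Exoc3l4 differed by -0.28 ± 0.13 (SE). In Exoc7 and Exoc2 all irradiated mice lay below the sham mice, but the groups nearly touched. The highest irradiated and lowest sham levels were 6.696 and 6.699 for Exoc7, and 9.101 and 9.108 for Exoc2. Exoc2 is named because of its values. No test set Exoc4 against the other subunits.

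Of the 20 other Eph receptors and ephrins, 15 were higher and 5 lower, with a median difference of 0.07 and a highest of 0.42. Efna1, which encodes an ephrin-A ligand of Epha2, stood at 5.80 ± 0.27 in irradiated and 5.51 ± 0.14 in sham mice (SD, n = 4 each; adjusted p = 0.822 in limma), and Epha5 differed by 0.21 ± 0.12 (SE). Of the 23 other ionotropic glutamate receptor and AMPA auxiliary genes, 12 were higher and 11 lower, and 18 had means under the median of all probe sets. The auxiliary subunit gene Cacng2 differed by 0.32 ± 0.17 (SE) and Cacng5 by -0.21 ± 0.13, neither past the threshold.

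Of the 20 other membrane serine proteases, inhibitors and substrates, 13 were higher and 7 lower. The protease gene Tmprss2 stood at 4.26 ± 0.37 in irradiated and 5.08 ± 0.55 in sham mice (SD, n = 4 each; adjusted p = 0.819 in limma). Prss8, which encodes prostasin, a protease that works in a cascade with matriptase, differed by 0.25 ± 0.10 (SE). Of the 27 other FYVE domain genes, 14 were higher and 13 lower, and the extremes by p were Fgd1 (-0.38 ± 0.14, SE) and Rufy2 (-0.33 ± 0.12). Of the 16 focal adhesion genes, 9 were higher and 7 lower, with Bcar1 at 0.20 ± 0.14 (SE) and Itgb1 at -0.11 ± 0.09. Of the 15 other TRPM and ADP-ribose genes, 8 were higher and 7 lower. Parp1, the enzyme that builds ADP-ribose chains at DNA breaks, stood at 7.74 ± 0.19 in irradiated and 8.08 ± 0.08 in sham mice (SD, n = 4 each; adjusted p = 0.819 in limma), and Parp2 differed by -0.15 ± 0.10 (SE).

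**Figure D3:**
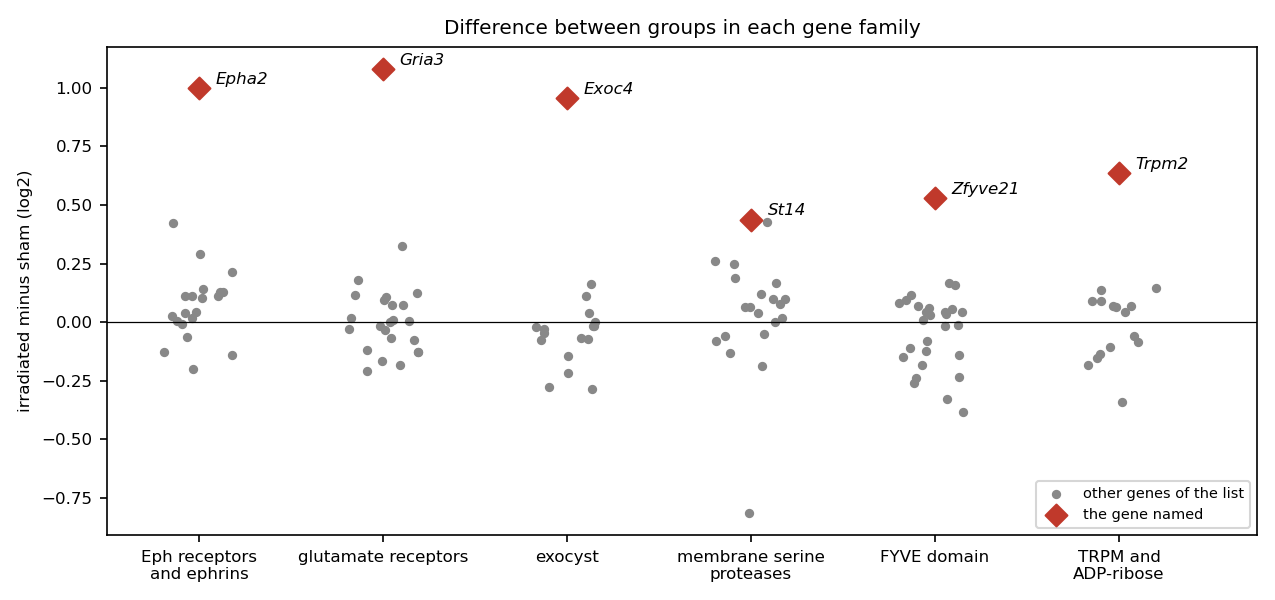
Difference between irradiated and sham mice on the log2 scale for each gene of 6 family lists, with the gene described here as a red diamond and its relatives as grey points. Each diamond is the highest point of its column, by a wide margin except for St14, whose nearest relative lies at 0.43. The 6 genes were chosen for this same difference and their relatives were not, so nothing is read from these margins.

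For comparison, 38 of the 44 listed p53 targets on the arrays were higher after irradiation and 6 lower, with a median difference of 0.29 against -0.03 over all genes. None passed the adjusted threshold, and 18 were higher at an unadjusted p under 0.05, as were 2.05% of all genes. In 11 of the 44 the irradiated group lay above the sham group without overlap, as in 1.12% of all genes. The list was drawn up with earlier results of these data known. Psrc1 stood at 5.88 ± 0.32 in irradiated and 4.90 ± 0.06 in sham mice (SD, n = 4 each; adjusted p = 0.545 in limma). Its sham mice, like those of Exoc4, were nearly level.

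Markers of the sorted cells and of other cells were measured beside these genes. The sorted cells' markers Ptprc, Itgam, Ly6c2 and Csf1r averaged 11.62, 11.12, 11.76 and 10.72 in irradiated mice and 11.66, 10.94, 11.55 and 10.89 in sham mice on the log2 scale. Of these, Ly6c2 varied most among mice, with an SD of 0.71 in irradiated and 0.42 in sham mice (n = 4 each). Epithelial and tumour cell markers, relevant to Epha2 and St14, which epithelia express, were higher for 7 and lower for 10 of 17 genes. Their list mean ranged from 5.47 to 5.92 in irradiated and from 5.57 to 6.28 in sham mice, so that the groups overlapped. The keratin gene Krt8 averaged 7.72 ± 0.83 in irradiated and 7.76 ± 0.67 in sham mice, and the adhesion gene Epcam averaged 5.23 ± 0.34 in irradiated and 5.45 ± 0.40 in sham mice (SD, n = 4 each). The differences were -0.16 for Krt18, 0.18 for Krt19 and 0.06 for Cdh1 on the log2 scale, and the groups overlapped for each of these 5 genes. The keratin signal was above the median of all probe sets on every array, and the part of such cells in the levels of Epha2 and St14 was not tested. Neuron and glia markers, relevant to Gria3, ranged from 4.31 to 4.48 in irradiated and from 4.24 to 4.51 in sham mice as a list mean, with 7 of 10 genes under the median of all probe sets.

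T and NK cell markers were lower in irradiated mice for 17 of 19 genes, with list means of 6.46, 5.39, 5.31 and 6.38 in irradiated mice 1 to 4, against 5.40, 7.23, 7.41 and 5.68 in sham mice 1 to 4. Cd3e, a T cell receptor chain gene, averaged 6.57 ± 1.23 in irradiated and 7.58 ± 1.51 in sham mice (SD, n = 4 each). B and plasma cell markers were lower for 9 of 11 genes, with a list mean of 5.01 to 5.81 in irradiated and 5.36 to 6.39 in sham mice. Endothelial markers were lower for 8 of 11 genes, with a list mean of 4.57 to 4.93 in irradiated and 4.49 to 5.01 in sham mice. Neutrophil markers were lower for 13 of 15 genes, and their list mean ranged from 6.15 to 7.33 in irradiated and from 6.91 to 8.40 in sham mice. Camp, a neutrophil granule gene, was at 8.02 and 10.10 in sham mice 2 and 3 and at 3.69 or less in the other 6 mice. With the T and NK marker mean as a covariate, the differences of the 6 genes ran from 0.44 for St14 to 1.18 for Gria3.

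**Figure D4:**
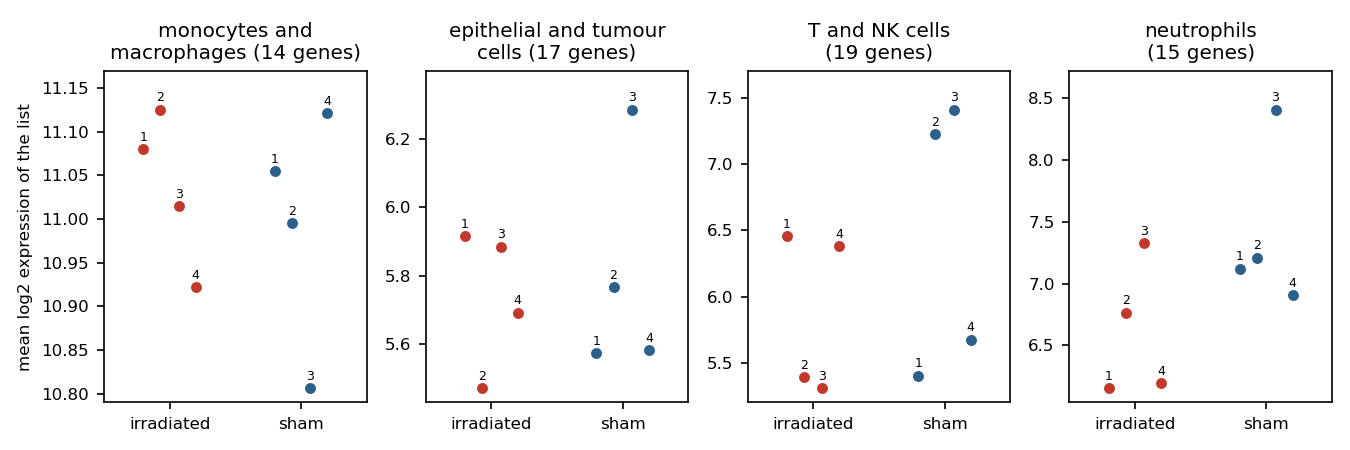
Mean log2 expression of 4 marker lists in each irradiated mouse (red, left) and each sham mouse (blue, right), with mouse numbers beside the points. The groups overlap in every panel, and sham mice 2 and 3 carry the highest T and NK cell markers, at 7.23 and 7.41.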

How the data were processed

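Total RNA of sorted cells, 25 ng per mouse per the labels' protocols, was amplified, labelled with biotin and hybridised to 8 arrays. The range of the deposited values shows a log2 scale. RMA and Partek were used by the authors, per the submitters' processing notes; their versions and settings are not given in the sources used. Of 34365 rows, 23521 have 1 gene symbol in the platform annotation, 1814 have several and 9030 none. The row with the highest mean was kept for each symbol, which left 22180 genes, and Entrez identifiers matched 21994 to RefSeq (GRCm38.p6), used for names. Array medians lay between 4.68 and 4.73, and arrays correlated at 0.978 to 0.989. Precision is limited by how few arrays there are. Groups were taken from sample titles. limma 3.58.1 in R 4.3.3 (lmFit, eBayes, two-sided) was fitted to all genes, with Benjamini-Hochberg adjustment and a threshold of 0.05; it was tested on simulated data. SEs are from that fit and SDs from the 4 mice. Plots were drawn with matplotlib 3.10.9.

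The 6 genes and all lists were chosen with earlier results of these data known. Besides the 6, the text names Ccng1 and Trp53inp1, the 2 other genes of each family list with the smallest p, the 3 genes most correlated with each of the 6 among those with a mean over 4.70, the median of all values (predicted genes, small RNAs and receptor segments left out), and fixed markers. Same-numbered irradiated and sham mice had deviations from their group means that correlated at -0.28 to -0.14, so the numbers were not taken to pair the mice. Alternatives were other normalizations, a filter on dim genes, the mean of rows, array weights, other variance models, a block for the mouse number, the T and NK marker mean as a covariate, sham mice 2 and 3 left out, and each array left out; the relation without its 2 farthest arrays was chosen after seeing the data.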

Additional observations from a re-analysis of the deposited data

Results flagged for a closer look

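St14 in the irradiated group was marked because 1 mouse lay far from the others: irradiated mouse 3 stood at 5.24 against 5.15 to 5.17 in the other 3, a gap of 0.835 of the group's range, above Dixon's 95% critical value for 4 samples. The whole range was 0.09 on the log2 scale. Of 16 groups examined, 1 was marked, and chance marks about 1 in 20.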

How the results depend on the processing

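The differences of the 6 genes kept their sign in all 102 recomputed values, and 100 of them moved by less than the SD between mice. The exceptions came without sham mice 2 and 3, where Gria3 differed by 1.41 and Trpm2 by 0.39. When single arrays were left out, the difference ranged from 0.87 to 1.10 for Epha2, 0.94 to 1.23 for Gria3, 0.78 to 1.11 for Exoc4, 0.38 to 0.50 for St14, 0.45 to 0.60 for Zfyve21 and 0.52 to 0.72 for Trpm2. The count of genes past the adjusted threshold was 0 in every setting except 1 without irradiated mouse 1. The count of genes with the irradiated group above the sham group was 248. It was 384 with quantile normalization, which also gave 662 genes higher and 603 lower at an unadjusted p under 0.05, 118 with dim genes removed and 1202 without sham mice 2 and 3. It lay between 461 and 568 with 1 array left out, where fewer mice must be separated. With dim genes removed, fewer genes were tested, and 221 were higher and 580 lower at an unadjusted p under 0.05, against 454 and 893. With the mouse number as a block these counts were 356 and 709, 0 genes passed, the 6 differences were unchanged by construction, and no irradiated mouse correlated best with the sham mouse of its own number. After group means were subtracted, the r of Exoc4 with Ccng1 ranged from 0.88 to 0.99 with each array left out and that of Zfyve21 from -0.91 to -0.55. Those of Epha2, from 0.21 to 0.83, and of Trpm2, from 0.07 to 0.57, kept their sign. Those of Gria3, from -0.01 to 0.60, and of St14, from -0.25 to 0.39, changed sign. Detection calls were not used, so signal over background limits what can be said of the dimmer genes St14 and Epha2.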

Other observations

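Of the genes most like the 6 described, Phlda3 and Mdm4 belong to the p53 network, as do Ccng1, Psrc1 and Trp53inp1, named above for Exoc4. These likenesses keep the group means and so include the separation of the groups. No listed p53 target was among the 3 genes most like Gria3, St14 or Zfyve21. Among the 11156 brighter genes, Ccng1 and Trp53inp1 ranked 17 and 13 for Epha2, 41 and 16 for Gria3 and 52 and 41 for St14. Their ranks were 449 and 314 for Zfyve21 and 60 and 213 for Trpm2. Phlda3, the repressor of Akt whose pattern was closest to Epha2, stood at 7.34, 7.66, 8.11 and 7.22 in irradiated mice 1 to 4, against 6.61, 6.44, 6.81 and 6.21 in sham mice 1 to 4. Both Phlda3 and Epha2 were highest in mouse 3 and lowest in mouse 4 of the sham group. Mdm4, which encodes the p53 inhibitor related to Mdm2, stood at 9.32, 9.80, 9.70 and 9.52 in irradiated mice 1 to 4, against 9.18, 8.92, 9.02 and 9.17 in sham mice 1 to 4. Like Trpm2, Mdm4 was highest in irradiated mouse 2, lowest in irradiated mouse 1 and lower in sham mice 2 and 3 than in sham mice 1 and 4.

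Lhx2, a homeobox gene close to Zfyve21 in pattern, stood at 5.42, 4.96, 4.93 and 5.38 in irradiated mice 1 to 4, against 4.73, 4.62, 4.48 and 4.67 in sham mice 1 to 4. Its sham levels lay near or below 4.70, the median of all probe sets, and signal over background was not tested. Its 2 higher irradiated mice, 1 and 4, are those with the higher markers of T and NK cells, B and plasma cells, fibroblasts and dendritic cells, whose part in this level was not tested.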
